A study of Saccharomyces cerevisiae with 15 samples.

Results

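The iron uptake regulon of Saccharomyces cerevisiae was followed through a shift from glutamine to proline as the nitrogen source. It was represented by 10 of the 5449 genes measured, namely the cell wall mannoprotein genes FIT1, FIT2 and FIT3, the reductive uptake genes FET3 and FTR1, the siderophore transporter genes ARN1, ARN2 and SIT1, and the regulator genes AFT1 and AFT2. The genes were picked by name with their levels at 56 and 120 min, set against those at 24 and -10 min, already known. The late values are therefore given as descriptions without a test. Because the arrays at 24 and -10 min also entered that choice, the tests of the earlier times were not fully independent of it either.

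Wild-type cells of the strain YSBN6 grew in batch bioreactors on glucose minimal medium with glutamine and proline, and the time of the shift was set as the point at which glutamine could no longer be detected in the broth. Total RNA from 3 separate cultures, in samples labelled -10, 7 and 24 min from the shift, was hybridised to Affymetrix Yeast Genome 2.0 arrays, of which the whole time course has 15. The times -5, 3, 10, 14, 56 and 120 min had 1 array each, all from the culture of replicate 1. All groups therefore shared genotype and starting medium. They differed in time and, along with it, in the glutamine left in the broth, and no culture without a shift was analysed here. The label -10 min is nominal, since the study records that these samples were taken somewhat earlier and not at the same time in each culture.

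Yeast takes up iron along 2 main routes. In the reductive route, cell surface reductases free iron that the multicopper oxidase Fet3 and the permease Ftr1 bring into the cell. In the other, the Arn family of transporters imports iron bound to siderophores, and the Fit mannoproteins of the cell wall help to retain such complexes. The transcription factors Aft1 and Aft2 activate these genes when the mitochondrial iron-sulfur signal is low, and the glutaredoxins Grx3 and Grx4 take part in sensing it.

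Each of the 10 genes was read by a single probe set, and all 10 lay above the background level, an intensity of 68.1, in every array. The background level was the 95th percentile of the probe sets designed for another organism on the same array. Median log2 intensity over all yeast probe sets lay between 11.20 and 11.29 in the arrays up to 24 min and came to 11.33 and 11.28 in those of 56 and 120 min. Intensities are normalised between arrays and carry no absolute scale, so that levels are compared between times of a gene and never between genes. RNA came from whole cultures, in which a change in all cells and a change in the share of cells expressing a gene cannot be told apart. The number of arrays limits the precision.

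Before the late phase the regulon was divided. By 24 min the transcripts of FTR1, SIT1, FET3, FIT3, ARN1 and AFT1 had fallen, by between 0.50 and 1.50 on the log2 scale, while those of FIT1 and FIT2 had risen by 0.56 and 0.79, AFT2 was lower by a marginal call and ARN2 was not called. In the single arrays at 56 and 120 min FIT2 then stood above its level at 24 min by 2.94 and 3.12 on the log2 scale, the largest positive difference of the 5498 probe sets at both times. FTR1, ARN1, ARN2, SIT1 and FET3 stood higher at 56 min than at 24 min and lower at 120 min than at 56 min, whereas FIT1 did not follow.

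**Figure D1:**
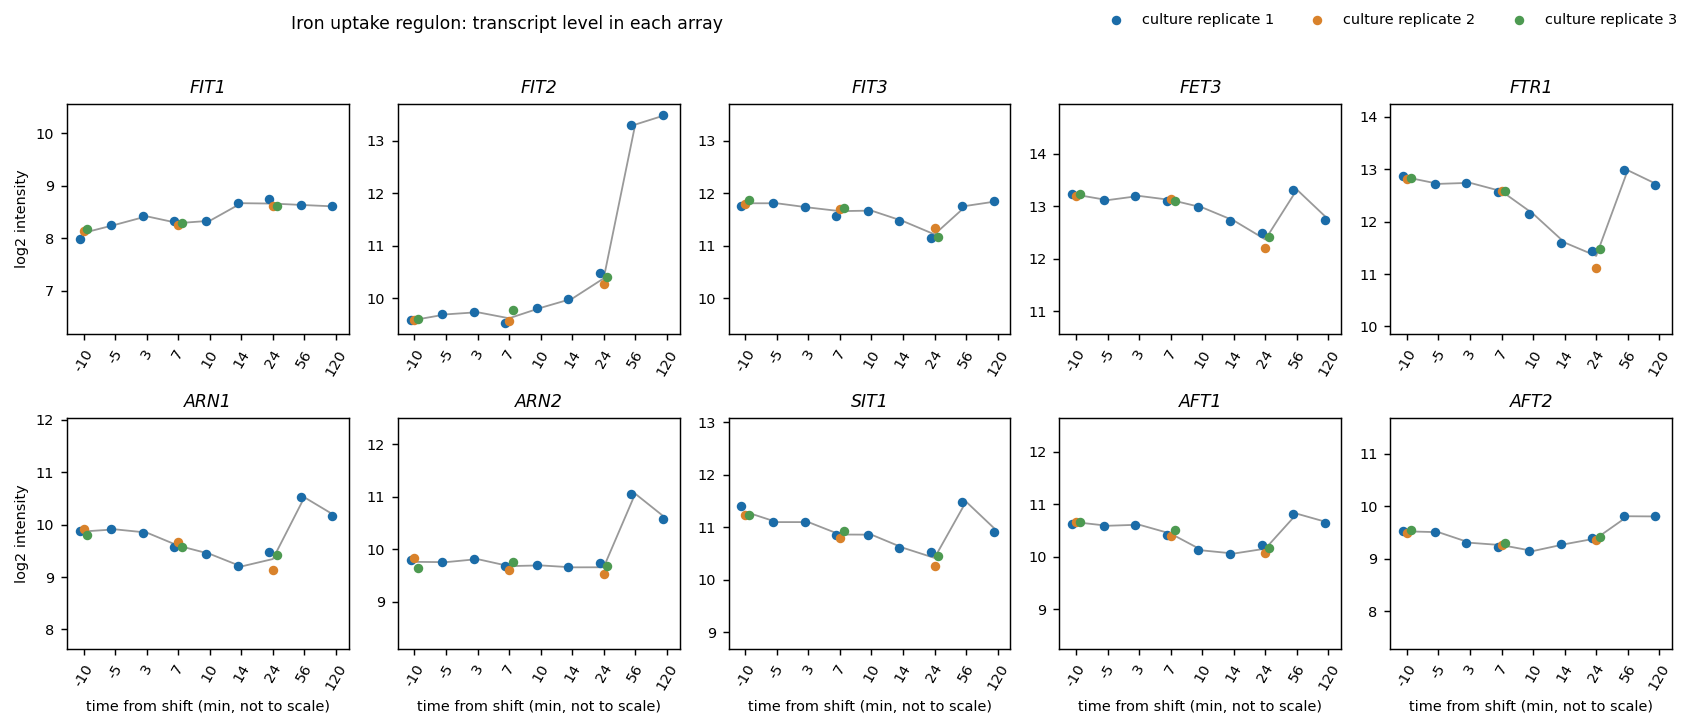
Log2 intensity of each of the 10 genes (vertical axes, each spanning the same log2 range) in every array against time from the shift in min (not to scale), with points coloured by culture replicate and a line through the mean of each time. FIT2 climbs to above 13 at 56 and 120 min, most other genes dip towards 24 min and stand higher at 56 min, and FIT1 stays flat after 14 min.

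The permease gene FTR1 showed the deepest trough of the 10. Its intensity was 7512, 7207 and 7329 in the 3 cultures at -10 min, 6045, 6172 and 6168 at 7 min and 2786, 2223 and 2851 at 24 min, and the 3 groups did not overlap. In the culture of replicate 1 it began at 6726 and 6854 (-5 and 3 min), dropped to 4547 and 3113 (10 and 14 min) and ended at 8071 and 6612 (56 and 120 min). The level had thus already fallen by 7 min (log2 change -0.26 ± 0.07, SE, n = 3 against 3, adjusted p = 0.0135 in limma) and by 24 min stood at -1.50 ± 0.07 (adjusted p = 1.31e-09), with all 3 cultures lower. The call at 7 min was lost without replicate 1 (adjusted p = 0.0824) and without replicate 3 (adjusted p = 0.0739). At 56 min it was back above all 3 arrays at -10 min, 0.14 above their mean on the log2 scale, and at 120 min 0.15 below it.

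FET3, which encodes the oxidase partner of Ftr1, fell with FTR1, and by less at 24 min. It measured 9620, 9423 and 9684 at -10 min, 8861, 9076 and 8812 at 7 min, and 5733, 4717 and 5477 at 24 min, without overlap between these groups. Its change at 7 min, -0.10 ± 0.06 (SE), did not pass the limma test (adjusted p = 0.170) except without replicate 2 (adjusted p = 0.00324), and that at 24 min did (-0.86 ± 0.06, adjusted p = 2.18e-08). The single arrays of FET3 gave 8930 and 9422 (-5 and 3 min), 8082 and 6800 (10 and 14 min), and 10196 and 6872 (56 and 120 min). The 56 min value stood 0.95 above the 24 min mean on the log2 scale and the 120 min value 0.38 above it, the latter still 0.48 below the -10 min mean. Both components of the reductive route thus had their lowest level at 24 min and their highest at 56 min. Across the 15 arrays their log2 levels had a Pearson correlation of 0.93, the highest of any pair among the 10 genes, and most of these arrays are time points of 1 culture.

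Among the siderophore transporters, SIT1, whose product imports ferrioxamine, had the largest fall at 7 min. Its intensity was 2713, 2416 and 2417 at -10 min, 1864, 1783 and 1944 at 7 min, and 1476, 1234 and 1396 at 24 min. These groups did not overlap, and the changes were -0.43 ± 0.07 (SE) at 7 min (adjusted p = 0.000387 in limma) and -0.88 ± 0.07 at 24 min (adjusted p = 1.30e-07). The single arrays gave 2202 and 2189 (-5 and 3 min), 1857 and 1568 (10 and 14 min), and 2885 and 1943 (56 and 120 min). SIT1 at 56 min was therefore above every other array, and at 120 min it had returned to the range seen at 7 min.

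ARN1, a transporter of ferrichrome-type siderophores, had its lowest single value at 24 min, in the culture of replicate 2. Within the culture of replicate 1 the lowest value came at 14 min. It measured 945, 972 and 890 at -10 min, 758, 812 and 757 at 7 min, and 713, 562 and 683 at 24 min, and these groups did not overlap. The fall was -0.27 ± 0.08 (SE) at 7 min (adjusted p = 0.0228 in limma) and -0.53 ± 0.08 at 24 min (adjusted p = 8.57e-05). From 961 and 922 (-5 and 3 min) the culture of replicate 1 passed through 695 and 589 (10 and 14 min) to 1471 and 1144 (56 and 120 min). Both late values lay above every earlier array, the first by 1.18 on the log2 scale over the 24 min mean and the second by 0.82.

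ARN2, which encodes a transporter of triacetylfusarinine C, differed from ARN1 and SIT1 in having no called change at any time up to 24 min. Its intensity was 892, 913 and 802 at -10 min, 822, 779 and 861 at 7 min, and 859, 743 and 825 at 24 min, so that these groups overlapped. The log2 change at 24 min was -0.10 ± 0.07 (SE, adjusted p = 0.202 in limma), and with quantile normalization it was 0.14 and called higher (adjusted p = 0.0238). ARN2 then measured 864, 900, 828 and 807 at -5, 3, 10 and 14 min, and 2142 and 1535 at 56 and 120 min. With 1.41 and 0.93 above the 24 min mean on the log2 scale, ARN2 had no earlier trough under the main normalization, and its late values exceeded the -10 min mean by 1.30 and 0.82.

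The 3 mannoprotein genes each took a course of their own. FIT2 measured 763, 765 and 775 at -10 min, 733, 753 and 874 at 7 min, and 1421, 1225 and 1352 at 24 min. The groups at -10 and 7 min overlapped and the group at 24 min lay above both. The log2 change at 24 min was 0.79 ± 0.07 (SE, adjusted p = 5.24e-07 in limma) against 0.03 ± 0.07 at 7 min (adjusted p = 0.766). FIT2 passed through 826 and 850 (-5 and 3 min) and 900 and 1016 (10 and 14 min), and reached 10169 and 11583 (56 and 120 min). Against -10 min the late arrays stood 3.73 and 3.92 higher on the log2 scale, and against the 24 min array of the same culture 2.84 and 3.03 higher.

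FIT3 lies next to FIT2 on the chromosome in the RefSeq annotation (assembly R64) and moved the other way before the late phase. It measured 3475, 3573 and 3739 at -10 min, 3016, 3330 and 3374 at 7 min, and 2271, 2577 and 2310 at 24 min, without overlap. The fall was -0.59 ± 0.06 (SE) at 24 min (adjusted p = 8.57e-07 in limma). At 7 min the change of -0.15 ± 0.06 was not called (adjusted p = 0.0543), but was called with the culture as a replicate block (adjusted p = 0.0324). The single arrays gave 3598 and 3391 (-5 and 3 min), 3260 and 2833 (10 and 14 min), and 3465 and 3688 (56 and 120 min). FIT3 thus stood close to its -10 min mean at 56 and 120 min, from which it differed by -0.05 and 0.04 on the log2 scale, while its neighbour stood far above its own.

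FIT1 had risen by 14 min and kept that level. It measured 252, 282 and 290 at -10 min, 320, 304 and 313 at 7 min, and 430, 391 and 393 at 24 min, and these groups did not overlap. The log2 rise was 0.56 ± 0.08 (SE) at 24 min (adjusted p = 2.69e-05 in limma), and 0.19 ± 0.08 at 7 min (adjusted p = 0.0804, not called, but called with median centring at an adjusted p of 0.0179). After 305, 341, 322 and 406 at -5, 3, 10 and 14 min, the 56 and 120 min arrays gave 396 and 389. These differed from the 24 min mean by -0.03 and -0.06 on the log2 scale, less than the pooled SD of 0.08 between cultures. Against the 24 min array of the same culture the differences were -0.12 and -0.15, larger than that SD. FIT1 thus showed no late rise.

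The regulator gene AFT1 was lower at 7 and 24 min. It measured 1587, 1627 and 1624 at -10 min, 1359, 1354 and 1454 at 7 min, and 1202, 1071 and 1147 at 24 min, without overlap. Its log2 change was -0.22 ± 0.05 (SE) by 7 min (adjusted p = 0.00722 in limma) and -0.50 ± 0.05 by 24 min (adjusted p = 2.34e-06). Following 1538, 1558, 1109 and 1067 at -5, 3, 10 and 14 min, AFT1 measured 1806 at 56 min and 1603 at 120 min. AFT1 thus had its lowest value at 14 min and at 120 min was within the range of the arrays at -10 min.

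AFT2, the paralog of AFT1, measured 736, 719 and 751 at -10 min, 595, 612 and 632 at 7 min, and 672, 659 and 678 at 24 min, without overlap. Its fall at 7 min was -0.26 ± 0.05 (SE, adjusted p = 0.00252 in limma). The remaining difference at 24 min, -0.13 ± 0.05 (adjusted p = 0.0394), was lost with the culture as a replicate block (adjusted p = 0.0606) and without any 1 of the 3 replicates (adjusted p from 0.0713 to 0.186). With quantile normalization it was 0.11 (adjusted p = 0.0576), of the other sign. The single arrays gave 727, 632, 567 and 620 at -5, 3, 10 and 14 min, and 898 and 895 at 56 and 120 min. AFT2 was lowest at 10 min, and both late values lay above every earlier array.

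At -5 min 0 of the 10 genes were called in limma, beside 0% of all probe sets called higher and 0.0182% lower. At 3 min 0 were called, beside 2.56% of all probe sets called higher and 1.13% lower. An unadjusted p below 0.05 was reached by 0 of the 10 at -5 min and by 2, FIT1 and AFT2, at 3 min. The share of all probe sets at that unadjusted limit was not counted, so these 2 have no background beside them. At 7 min 5 were called, all lower (FTR1, ARN1, SIT1, AFT1 and AFT2), beside 20.9% of all probe sets called lower and 18.5% higher. The count at 7 min depended on the cultures, with 1 gene (SIT1) called without replicate 1, 7 without replicate 2 and 2 (SIT1 and AFT2) without replicate 3.

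Tests of the single arrays at 10 and 14 min borrow the spread of the times that had 3 cultures, and no replicate checks them. At 10 min 6 genes were called lower and 0 higher, beside 25.5% and 25.6% of all probe sets. FTR1 stood at -0.69 ± 0.10 (SE, adjusted p = 0.000138 in limma) and AFT1 at -0.54 ± 0.08 (adjusted p = 8.67e-05). With median centring FIT1 and FIT2 were called higher at 10 min (adjusted p = 0.0283 and 0.0163), FIT2 also with quantile normalization (adjusted p = 0.0091). At 14 min 7 were called lower and 2 higher, beside 29.4% and 38.2% of all probe sets. FTR1 had then fallen by 1.24 on the log2 scale, and FIT1 and FIT2 were the 2 called higher, at 0.57 ± 0.11 and 0.41 ± 0.10 (SE). Without replicate 3 the calls of FET3 at 10 min (adjusted p = 0.0923) and of AFT2 at 14 min (adjusted p = 0.0781) were lost, the latter also with quantile normalization (adjusted p = 0.324).

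At 24 min against -10 min 7 of the 10 genes were called lower and 2 higher, beside 35.2% of all probe sets called lower and 46.9% higher. The median change was -0.51 on the log2 scale over the 10 genes and 0.09 over all probe sets. At 24 min against 7 min 6 genes were called lower and 2 higher, beside 29.9% and 46.9% of all probe sets, and ARN2 and AFT2 were not called. The comparisons at 7 and 24 min share the arrays at -10 min, and that of 24 with 7 min uses arrays of both. AFT2, at 0.13 for 24 min against 7 min (adjusted p = 0.0502), was called higher there with quantile normalization (0.35, adjusted p = 6.39e-05). It narrowly passed in limma with 50 added before log2 (adjusted p = 0.0459) and with dim probe sets left out (adjusted p = 0.0468). ARN1, called lower at 24 min against 7 min (adjusted p = 0.0152 in limma), was not called there without replicate 2 (adjusted p = 0.108) or with quantile normalization (adjusted p = 0.763).

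**Figure D2:**
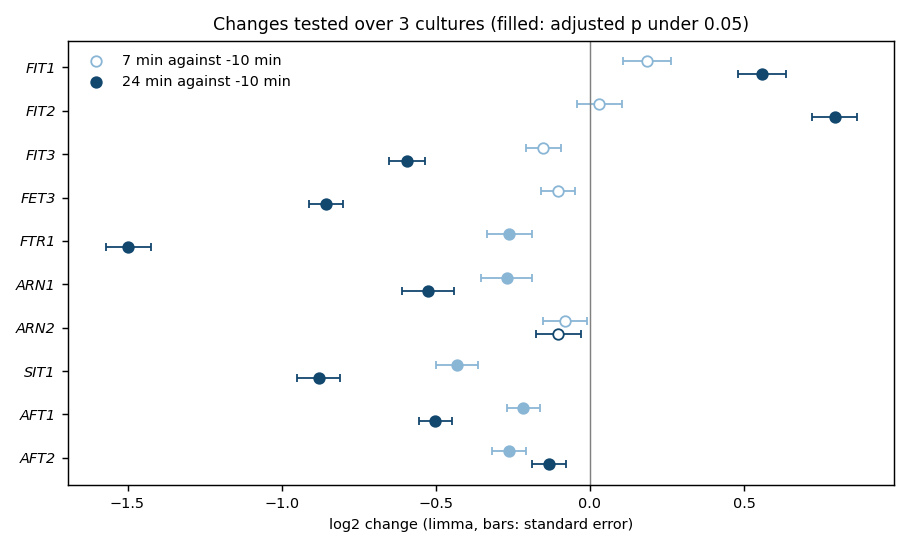
Log2 change of each of the 10 genes at 7 min (light) and 24 min (dark) against -10 min on the horizontal axis, with bars for the standard error of the limma fit over 3 cultures a time and filled points for an adjusted p under 0.05. At 24 min FTR1 lies furthest left at -1.50 and FIT2 furthest right at 0.79.

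In the late arrays the counts describe the same values by which the genes had been chosen. At 56 min 5 of the 10 stood more than 2-fold above the 24 min mean (FIT2, FTR1, ARN2, ARN1 and SIT1) and 0 more than 2-fold below it, beside 2.89% and 1.42% of all probe sets. With quantile normalization 3 of them remained above 2-fold, since ARN1 and SIT1 came to 0.95 and 0.92 on the log2 scale. Against the 24 min array of the same culture SIT1 stood 0.97 higher and 4 passed the limit. At 120 min 2 of the 10, FIT2 and FTR1, stood more than 2-fold above the 24 min mean and 0 below, beside 4.67% and 1.35% of all probe sets. Against -10 min 2 genes (FIT2 and ARN2) were more than 2-fold higher at 56 min and 0 lower, beside 10.7% and 10.6% of all probe sets. At 120 min against -10 min FIT2 alone was more than 2-fold higher and 0 were lower, beside 9.91% and 9.71% of all probe sets.

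Over the 8 uptake genes, without AFT1 and AFT2, the median late difference from 24 min was 1.13 on the log2 scale at 56 min and 0.72 at 120 min, beside 0.08 and 0.03 over all probe sets. All late differences from 24 min and all those from -10 min rest on the same 2 arrays of 1 culture. Between 56 and 120 min FIT2 and FIT3 gained 0.19 and 0.09 on the log2 scale. SIT1 and FET3 fell by 0.57 each between these arrays, ARN2 by 0.48, ARN1 by 0.36, FTR1 by 0.29 and AFT1 by 0.17, while FIT1 and AFT2 differed by -0.03 and -0.0045. No replicate spread is available at 56 or 120 min to set these differences against.

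Other genes known to be controlled by Aft1 or Aft2 were followed from a list of 18. At 24 min against -10 min 7 of them were called higher and 6 lower, beside 46.9% and 35.2% of all probe sets, so that neither share exceeded that over the array. Their median was 0.07 on the log2 scale. TIS11, whose product promotes decay of transcripts for iron-using proteins, rose by 1.27 ± 0.14 (SE, adjusted p = 3.59e-06 in limma). Transcripts of the biotin transporter VHT1 (-1.21), the low-affinity iron transporter FET4 (-1.12) and the enterobactin transporter ENB1 (-0.71) fell, in all 3 cultures.

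At 56 min FET4, TIS11 and ENB1 stood 1.45, 1.20 and 1.01 above their 24 min means on the log2 scale. These 3 of the 18 were more than 2-fold higher, beside 2.89% of all probe sets. At 120 min 0 of the 18 were, beside 4.67%. Against the 24 min array of the same culture ENB1 stood 0.92 higher, under that limit. FET4 and ENB1 at 56 min lay 0.32 and 0.29 above their -10 min means, as FTR1 and SIT1 did by 0.14 and 0.20. TIS11 instead stood 2.47 above it, being higher at both steps as FIT2 was. The vacuolar reductase gene FRE6 differed from its 24 min mean by 0.84 at 56 min and 0.52 at 120 min, the copper chaperone gene ATX1 by 0.56 and 0.52, and VHT1 by 0.13 and 0.16. Median differences over the 18 genes were 0.44 at 56 min and 0.16 at 120 min. The reductase gene FRE5, next to FIT3 on the chromosome, was not above the background level in any array but is kept in these counts.

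**Figure D3:**
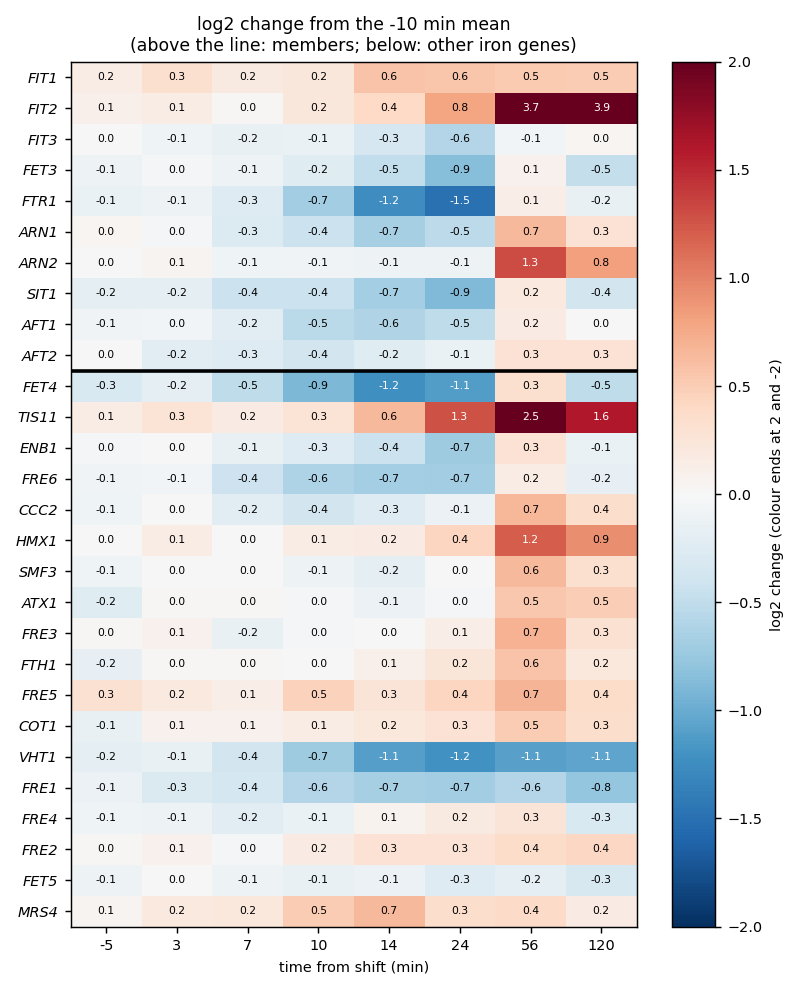
Log2 change from the mean of the 3 arrays at -10 min, by time from the shift in min (columns), for the 10 genes (above the line) and the 18 other Aft-controlled genes (below it), each cell printing its value and colours ending at 2 and -2. FIT2 (3.7 and 3.9) and TIS11 (2.5 and 1.6) hold the highest values at 56 and 120 min, and FTR1 the lowest (-1.5) at 24 min.

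Genes of iron sensing and of Aft1 transport were set beside them, 8 in all, of which 1 was called higher and 4 lower at 24 min against -10 min, beside 46.9% and 35.2% of all probe sets. PSE1, which encodes the importin that carries Aft1 into the nucleus, fell by 1.00 in log2 terms (SE 0.03, adjusted p = 2.41e-11 in limma). The glutaredoxin genes GRX3 and GRX4 fell by 0.79 and 0.35 and their partner BOL2 by 0.32, while MSN5, the exporter of Aft1, rose by 0.20 (adjusted p = 0.00355) but was not called without replicate 3 (adjusted p = 0.0760). At 56 min 0 of the 8 differed by more than 2-fold from 24 min, beside 2.89% of all probe sets higher and 1.42% lower. YAP5, the activator that responds to high iron, had no called change at 24 min (-0.01) and stood 0.54 above 24 min at 56 min and 0.43 at 120 min. FRA1, another sensing gene, stood 0.42 and 0.30 above. PSE1, GRX3 and GRX4 at 120 min remained 0.93, 0.64 and 0.61 below their -10 min means.

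Of the 3 genes of vacuolar storage and of Yap5 control, CCC1, the vacuolar iron importer, was called higher at 24 min (0.39 ± 0.03, SE, adjusted p = 2.74e-07 in limma) and TYW1 lower (-1.58), as was GRX4, which is also in the sensing list. CCC1 differed from its 24 min mean by -0.05 on the log2 scale at 56 and at 120 min, and TYW1 stood 0.32 and 0.70 above. None of these 3 differed more than 2-fold from 24 min in either late array. Over all probe sets 2.89% stood higher and 1.42% lower by that limit at 56 min, and 4.67% and 1.35% at 120 min. With shares so low, a count of 0 in a short list does not set it apart.

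Iron-sulfur cluster assembly, represented by 24 genes, had 14 called lower and 7 higher at 24 min, beside 35.2% and 46.9% of all probe sets. TAH18 (-1.95), YAH1 (-1.43), ATM1 (-1.38) and ISU2 (-1.37) led the falls, in all 3 cultures. At 56 min 0 of the 24 differed by more than 2-fold from 24 min, beside 2.89% of all probe sets higher and 1.42% lower. At 120 min 1 did, beside 4.67% and 1.35%. This was the scaffold gene ISU1, at 1.01, which came to 0.96 against the 24 min array of the same culture. ISU1 had fallen by 0.31 at 24 min (SE 0.03, adjusted p = 3.48e-06 in limma) and stood 0.70 above its -10 min mean at 120 min, while its paralog ISU2 still stood 1.12 below. NAR1, TAH18 and ATM1 stood 0.94, 0.66 and 0.64 above their 24 min means at 120 min.

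The 8 genes of heme synthesis had 3 called higher and 2 lower at 24 min, both shares below the 46.9% and 35.2% over all probe sets. HEM14 (0.82) and HEM15 (0.62), which act in the last steps of the pathway, rose, and HEM1 (-0.82) and HEM3 (-0.96), which act early, fell. At 120 min HEM12, HEM4 and HEM3 differed from 24 min by -0.45, -0.33 and -0.23 and HEM1 by 0.38. In either late array 0 of the 8 passed 2-fold. Over all probe sets 2.89% stood higher and 1.42% lower at 56 min, and 4.67% and 1.35% at 120 min. Iron-using enzymes and their subunits, 15 genes, had 7 called higher and 5 lower at 24 min, close to the 46.9% and 35.2% over all probe sets. These were led by the aconitase gene ACO1 (1.29), the succinate dehydrogenase gene SDH2 (0.83), the homoaconitase gene LYS4 (-1.62) and the biotin synthase gene BIO2 (-0.73).

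ILV3, an iron-sulfur enzyme of branched-chain amino acid synthesis, stood 1.41 below its 24 min mean on the log2 scale at 56 min and 1.13 below at 120 min, and LYS4 stood 0.98 and 1.26 above. ACO1 differed by 0.76 and 0.73 and the ribonucleotide reductase gene RNR2 by 0.62 and 0.78. Uptake and handling of copper, zinc and manganese, with regulators included, was covered by 11 genes. Of these 4 were called higher and 5 lower at 24 min, beside 46.9% and 35.2% of all probe sets. ZRT2 (-1.31), ZAP1 (-0.66) and CTR1 (-0.66) fell and CTR2 (0.56) rose. In both late arrays 0 of these 11 differed more than 2-fold from 24 min. The shares over all probe sets were 2.89% higher and 1.42% lower at 56 min, and 4.67% and 1.35% at 120 min. The differences at 120 min were 0.54 for ZRT2, 0.44 for CTR1, 0.38 for ZAP1 and -0.50 for CTR3.

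**Figure D4:**
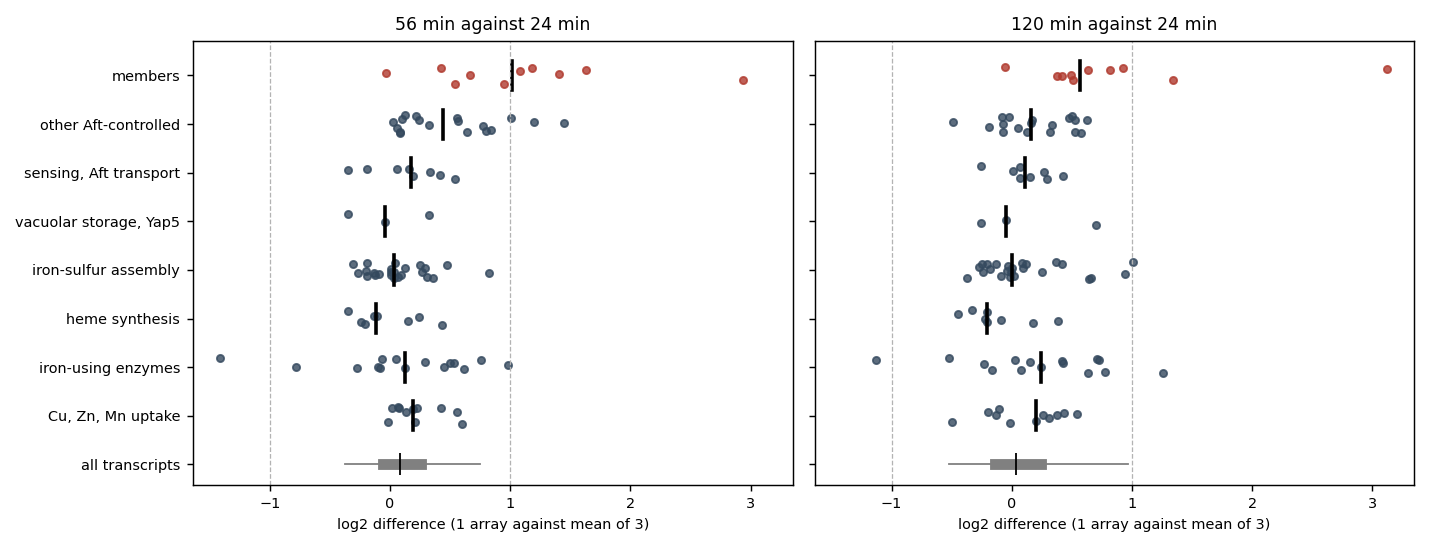
Log2 difference of the single array at 56 min (left) and 120 min (right) from the 24 min mean for every gene of each list (points, spread vertically at random), with a bar at each list's median and dashed lines at 2-fold. For all transcripts the bars span the middle 50% and the thin line the 5th to 95th percentile. The medians of the 10 genes, 1.01 and 0.57, come from genes chosen on these arrays.

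The mean log2 deviation of the 8 uptake genes from -10 min was -0.30, -0.50 and -0.36 in the 3 cultures at 24 min. It was 0.82 at 56 min and 0.57 at 120 min, where FIT2, at 3.73 and 3.92, weighed heavily in this mean. The median over the 8 genes was 0.36 and 0.16 at these times. At 120 min 4 of the 8 stood above every array at -10 min and 3 below every one. Of all 5498 probe sets 2880 stood above and 2187 below, so that the 8 genes were close to the shares over the array. Of the members, ARN1 and ARN2 were closest to this mean course (Pearson correlations of 0.94 and 0.93 over 15 arrays, which include them in the mean), and FIT1 was furthest from it (-0.01). Among 1832 genes outside the list whose log2 level varied with an SD of at least 0.3, those most like it were SSK22 (0.98), MCH5 (0.97), TPO2 (0.96), NDE1 (0.96), ERG3 (0.95), ASK10 (0.95), PRM5 (0.95) and ISU1 (0.95). They are named as a description, since the 15 arrays are mostly time points of 1 culture and the 56 and 120 min arrays weigh heavily in each correlation. SSK22, a kinase gene of the osmotic stress pathway, stood at -1.03 at 24 min against -10 min and at 2.36 and 2.07 above 24 min at 56 and 120 min. MCH5, the riboflavin transporter gene, stood at -0.37 and then at 1.47 and 1.29.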

How the data were processed

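The files deposited by the authors hold an intensity for each probe set in each array. Per the submitters' processing notes and the study's methods, the affy package in R 2.10.0 removed the background as in RMA, used perfect-match probes alone, normalised by QSPLINE and summarised probes with the Li and Wong index. This makes intensities relative to a common distribution, so that a shift of all RNA is not seen. Genes were named from the platform annotation, and of 10928 probe sets the 5498 with 1 S. cerevisiae gene were used. Values were taken to log2 and fitted in limma 3.58.1 (R 4.3.3) with 1 mean per sampled time over all 15 arrays (6 residual degrees of freedom, eBayes with a trend, two-sided), with the Benjamini-Hochberg adjustment taken over all 5498 probe sets. A gene was called at an adjusted p under 0.05. Late times, with 1 array each, were described by the log2 difference from the mean of 3 arrays, with 2-fold as the limit. A time with 1 array was tested on the assumption that it varies like the times with 3 cultures. The fit was tested on simulated data.

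The members and the other lists were chosen with earlier results of these data known. All 10 members are named, and of each other list up to 4 genes with the largest called change at 24 min in the same direction in 3 cultures, up to 4 with the largest difference at 120 min against 24 min, and the 8 genes most correlated with the mean uptake course. A replicate number marks a bioreactor culture. That of replicate 1 has an array at every time, and the other cultures have arrays at 3 times each. Deviations of same-numbered arrays from their group means correlated between -0.27 and 0.19, and a fit with the culture as a replicate block was run for each test. Other alternatives were quantile normalization, median centring, 50 added before log2, a filter on dim probe sets, the 9 replicated arrays alone, replicate 1 alone and leaving out each replicate.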

Additional observations from a re-analysis of the deposited data

How the results depend on the processing

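With the culture as a replicate block the number of the 10 genes called was 0, 0, 6, 6, 9 and 8 in the order -5, 3, 7, 10, 14 and 24 min, and 8 for 24 min against 7 min, and besides FIT3 at 7 min and AFT2 at 24 min it changed no call of a gene named above. Quantile normalization gave 1 called gene at 3 min in place of 0, 3 genes more than 2-fold above 24 min at 56 min in place of 5, and median late differences of the uptake genes of 0.95 at 56 min and 0.59 at 120 min in place of 1.13 and 0.72. With the arrays of replicate 1 only, the median at 56 min was 1.01. Leaving out each replicate gave counts of 0 to 0 (-5 and 3 min), 1 to 7 (7 min), 5 to 6 (10 min), 8 to 9 (14 min), 8 to 8 (24 min) and 7 to 8 (24 min against 7 min). Leaving out replicates at -5, 3, 10 and 14 min was chosen after seeing the data. The late counts ranged from 5 to 6 (56 min) and 2 to 2 (120 min) against 24 min, and from 2 to 2 and 1 to 1 against -10 min, with medians of 1.04 to 1.19 at 56 min and 0.70 to 0.74 at 120 min. With quantile normalization the sign turned for ARN2 (0.0508 at both 10 and 14 min, 0.14 at 24 min and 0.16 for 24 min against 7 min), AFT2 at 24 min (0.11) and YAP5 at 24 min (0.0265). Leaving out a replicate turned it in part of the ranges of FIT2 at 7 min (-0.0397 to 0.0746), YAP5 at 24 min (-0.0371 to 0.0163) and ARN2 at 24 min against 7 min (-0.0646 to 0.000574). ARN2 with quantile normalization passed the test at 24 min (adjusted p = 0.0238 in limma) as higher. The cause of these shifts was not tested. Late values rest on 1 array each, and no depth or count underlies array intensities.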
